A study of Rattus norvegicus with 9 samples.

Results

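The genes described here make and break down triacylglycerol, the storage fat of the lipid droplet, in circulating blood cells. They are 10 genes: the acyltransferases Gpam, Agpat1 and Agpat2, the lipins Lpin1 and Lpin2, the diacylglycerol acyltransferases Dgat1 and Dgat2, the lipases Lipe and Mgll, and the droplet coat protein Plin2, formerly Adfp. They were found by gene name, or by a transcript accession of the gene, among 35640 gene names on the array, and were read by 15 of its 41012 probes. The Plin2 probe carries neither name in the files. It was taken because the file describes its transcript (XM_216438) as ADRP, a synonym of Plin2 in RefSeq.

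RNA came from peripheral blood mononuclear cells, the lymphocytes and monocytes that a Ficoll gradient separates from red cells and granulocytes, of male Wistar rats. Blood was drawn at 6 months of age from fed animals. The cafeteria group of 5 animals had been offered fat-rich, energy-dense foods besides chow for 4 months, beginning at 2 months of age. The control group ate chow alone and has 4 animals, as 1 of the 5 assigned was excluded for too little RNA. Each array carried the RNA of 1 animal in the red dye (Cy5) against a pool of all samples in the green dye (Cy3), always in that orientation, so a value below is the log2 ratio of the animal to the pool. The design asks how blood cell expression differs with a diet that makes rats obese. Outbred animals on a diet of mixed foods serve as the model, and the intake of each food is not given in the sources used here.

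Triacylglycerol is built in the endoplasmic reticulum by adding fatty acids to glycerol 3-phosphate one at a time, with the removal of a phosphate before the last step. It is stored in droplets coated by perilipins and released again by a chain of lipases that each remove a fatty acid. The pathway is best known from adipose tissue and liver. Monocytes and macrophages also store droplets, which carry Plin2 on their surface, and fatty acids are an energy source for lymphocytes.

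Between 58.8% and 66.7% of 43379 spots gave a Cy5 signal well above background, and markers of the labelled cells were measured, with 13 of 13 T cell, 8 of 8 B cell and 11 of 11 monocyte genes on the array kept. A probe needed such a Cy5 signal on 4 or more arrays to be tested, which left 25811 probes and 14 of the 15 member probes, 12 of them above background on all 9 arrays. Two-colour arrays can lose dim signal in background correction, and 2 arrays stood apart in this. On cafeteria 4 and control 4 the main correction, normexp, fitted a Cy5 background SD of 946 and 997 intensity units, against 1.17 to 66.3 on the other arrays. Over 14261 kept probes with a mean log2 signal below 9, the SD of the log2 ratios was then 0.033 on cafeteria 4 and 0.049 on control 4, against 0.12 to 0.22 elsewhere. It was 0.19 and 0.24 on these arrays when the local background was subtracted and 50 added instead. As 10 of the 14 member probes are this dim, their values are also given with that subtraction or with the ratio of the scanner software.

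No member probe passed the adjusted threshold of 0.05 in limma, a linear model fitted to all 25811 probes, where 0.00775% of probes did (2 probes). Its lowest adjusted p among the members was 0.997. Of the 14 member probes, 9 had a higher and 5 a lower mean in cafeteria animals, and the median difference, cafeteria minus control, was 0.013 on the log2 scale, beside 0.0092 over all probes. The difference was under 0.1 in size for 12 probes, and for 13 the 95% interval covered 0. These intervals reached between 0.112 and 0.498 to either side of the estimate, depending on the probe. The sizes depended on the background correction. With subtraction 11 probes had a difference under 0.1, and by the scanner software's ratio 6 did. By that ratio the intervals reached between 0.218 and 0.726 to either side. With normexp an unadjusted p under 0.05 was reached by 1 probe, that of Mgll, where the share over all probes was 4.41%. The same probe alone reached that level with subtraction (5.68% of all probes) and with the scanner software's ratio (6.1%). The groups did not overlap for 0 of the 14, where 1.27% of all probes had groups that did not. In bulk RNA, fewer cells of a type and less RNA per cell cannot be told apart.

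**Figure D1:**
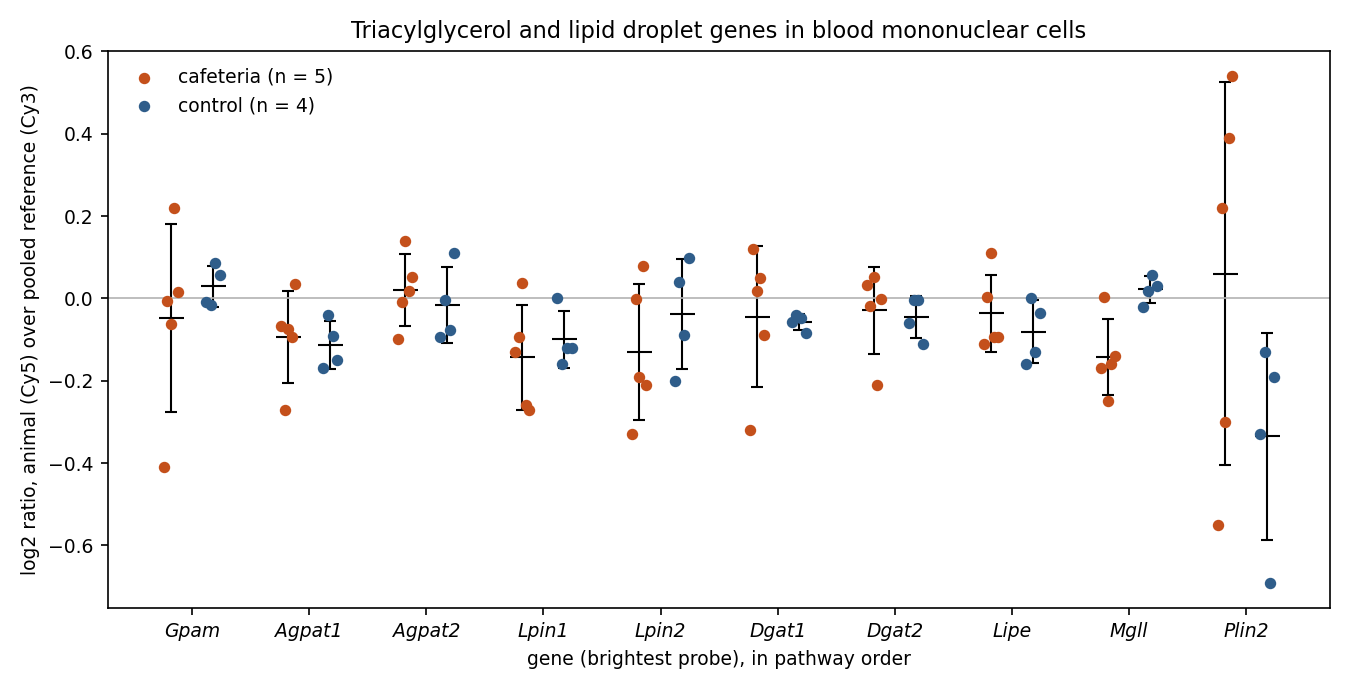
Log2 ratio of each animal to the pool (vertical axis) for the brightest probe of each of the 10 genes (horizontal axis), cafeteria animals left of control animals, with the group mean and SD as bars. The groups overlap for every gene, and Plin2 has the widest spread, reaching -0.55 to 0.54 in cafeteria animals and -0.69 to -0.13 in control animals.

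The pathway starts with Gpam, the mitochondrial enzyme that puts the first fatty acid on glycerol 3-phosphate (chromosome 1, 261370372 to 261375755, positions on build rn4). Its log2 ratios were -0.41, -0.0075, -0.061, 0.22 and 0.015 in cafeteria animals 1, 4, 7, 10 and 13, against -0.0077, -0.016, 0.087 and 0.056 in control animals 1, 4, 7 and 13. The cafeteria group held both the lowest and the highest value of all 9 arrays, and the control group lay between them. The means were -0.047 ± 0.23 in cafeteria (SD, n = 5) and 0.030 ± 0.050 in control animals (SD, n = 4). The difference of -0.077 had a 95% interval of -0.32 to 0.16. It was 0.013 without cafeteria 1, so its sign rested on that array.

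Agpat1 and Agpat2 add the second fatty acid and make phosphatidate. The Agpat1 probe (chromosome 20, 4237812 to 4237871) ran from -0.27 to 0.036 in cafeteria and from -0.17 to -0.040 in control animals. Its difference was 0.018 (95% interval -0.13 to 0.17). The Agpat2 probe (chromosome 3, 4772946 to 4773114) ran from -0.099 to 0.14 in cafeteria and from -0.093 to 0.11 in control animals, with a difference of 0.036 (-0.11 to 0.18). For Agpat2 the ranges of the groups nearly coincided, and for Agpat1 the control range lay within the cafeteria range. The sign was held under 15 of 23 other settings for Agpat1 and 21 of 23 for Agpat2. Such counts, here and below, include the settings of the filter and the prior, which cannot change an estimate. Mutations of AGPAT2 in humans cause congenital generalized lipodystrophy, and Agpat1 is the more widely expressed of the pair.

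Lipins take the phosphate off phosphatidate to give diacylglycerol. Lpin1, the main lipin of adipose tissue and muscle, had 2 probes. The brighter (chromosome 6, 40253117 to 40253176) averaged -0.14 ± 0.13 in cafeteria (SD, n = 5) and -0.10 ± 0.071 in control animals (SD, n = 4), a difference of -0.044 (95% interval -0.21 to 0.12). The other (40258060 to 40258119) gave 0.040 (-0.17 to 0.25), so the probes differed in sign, each within its interval. This dimmer probe gave 0.097 (-0.14 to 0.34) with subtraction and 0.24 (-0.17 to 0.65) by the scanner software's ratio. On the brighter probe cafeteria 10 and 13 were the lowest of the 9 arrays, at -0.26 and -0.27, and on the other probe control 1 was, at -0.35.

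Lpin2, the main lipin of liver and also active in macrophages, where LPIN2 mutations in humans cause the inflammatory Majeed syndrome, was read by 1 dim probe (chromosome 9, 110452130 to 110452189). Its ratios were -0.33, -0.0025, -0.19, 0.078 and -0.21 in cafeteria animals 1, 4, 7, 10 and 13, against -0.20, 0.041, -0.090 and 0.097 in control animals 1, 4, 7 and 13. Of the 5 cafeteria values 3 lay at or under -0.19, the range of the control group reached down to -0.20, and the groups overlapped. The difference was -0.093 (95% interval -0.31 to 0.12). It was -0.24 (-0.58 to 0.093) with subtraction and -0.71 (-1.44 to 0.017) with the scanner software's ratio, whose unadjusted limma p was 0.0545 and adjusted p 0.822. Control 4, at 0.041 by normexp, was at 0.48 with subtraction and 1.01 by the scanner software. Cafeteria 7 was at -0.22 and -1.21 in these. The sign was negative under 23 of 23 other settings of the processing, while the size moved from -0.71 to -0.043 among them.

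The final step, from diacylglycerol to triacylglycerol, is shared by 2 unrelated enzymes, Dgat1 and Dgat2. Dgat1 had 2 probes. The brighter (chromosome 7, 114552281 to 114552340) gave -0.32, 0.12, 0.019, 0.049 and -0.090 in cafeteria animals 1, 4, 7, 10 and 13, against -0.058, -0.041, -0.047 and -0.085 in control animals 1, 4, 7 and 13. The control values lay close together (SD 0.020), and cafeteria values lay on either side of them. The difference was 0.012 (95% interval -0.18 to 0.20), and it was 0.010 (-0.15 to 0.17) on the other probe (114553035 to 114553094). The probes of Dgat1 therefore gave nearly the same estimate with normexp, and cafeteria 4 was the highest array on both. By the scanner software's ratio they gave 0.059 and 0.13. The sign was held under 16 of 23 other settings on the brighter probe and 18 of 23 on the other.

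Dgat2, the enzyme that accounts for most triacylglycerol synthesis in mouse liver and fat, had 3 probes on chromosome 1. They gave differences of 0.014 (156447836 to 156447895; 95% interval -0.13 to 0.16), -0.084 (156459399 to 156459458; -0.25 to 0.085) and 0.040 (156450786 to 156450845; -0.072 to 0.15). The third was at the edge of detection, with Cy5 above background on 5 arrays (3 cafeteria and 2 control) and Cy3 on 0. Its spread between arrays of a group, 0.041, was among the lowest of all probes (percentile 1.08), while with the scanner software's ratio it was 0.40 (percentile 78.1). On the second probe 1 animal, control 1, stood at 0.35, above all others, and without a common sign among the 3 probes no direction can be given for Dgat2.

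**Figure D2:**
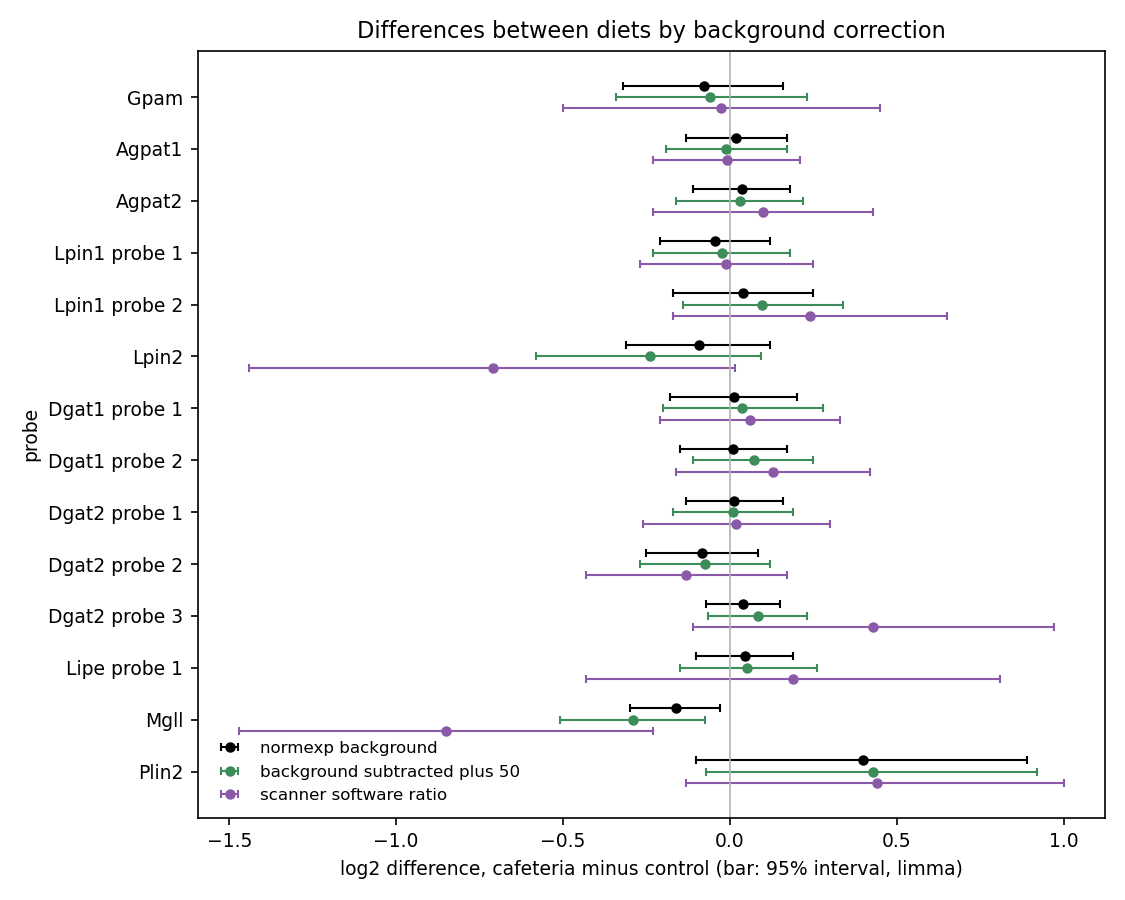
Difference between diets (cafeteria minus control, log2, horizontal axis) with its 95% limma interval for the 14 member probes kept (vertical axis), under 3 background corrections. Of the normexp estimates, 12 lie within 0.1 of 0, and the dim probes of Lpin2, Dgat2 (probe 3), Lipe and Mgll lie farther from 0 in the scanner software's ratio, with wider intervals.

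Breakdown of stored fat was represented by Lipe, the hormone-sensitive lipase of adipose tissue, and Mgll, which removes the last fatty acid from monoacylglycerol and also ends signalling by the endocannabinoid 2-arachidonoylglycerol. Of 2 Lipe probes, 1 (chromosome 1, 80672630 to 80672689) was above background on 2 of 9 arrays and was not tested. The other (80664872 to 80664931) ran from -0.11 to 0.11 in cafeteria and from -0.16 to 0.0015 in control animals, with a difference of 0.044 (95% interval -0.10 to 0.19). Its Cy3 signal was above background on 5 of 9 arrays, so the pool was itself near the limit.

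Mgll (chromosome 4, 122904962 to 122905021) had the largest difference against its spread. Its ratios were -0.17, 0.0039, -0.25, -0.16 and -0.14 in cafeteria animals 1, 4, 7, 10 and 13, against -0.020, 0.018, 0.058 and 0.031 in control animals 1, 4, 7 and 13. Of the 5 cafeteria animals, 4 lay below every control animal, and cafeteria 4 lay among the controls. The means were -0.14 ± 0.091 in cafeteria (SD, n = 5) and 0.022 ± 0.032 in control animals (SD, n = 4). The difference was -0.16 (SE 0.060, 95% interval -0.30 to -0.028), with an unadjusted limma p of 0.0223 and an adjusted p of 0.997. The share of all probes lower in cafeteria animals at this unadjusted level was 2.86%.

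The Mgll probe was dim, with Cy5 above background on 8 arrays (4 of 5 cafeteria and 4 of 4 control) and Cy3 on 4. Its Cy5 signal over local background, not scaled between arrays, was 43.3, 46.8, 40.1, 41.2 and 68.8 intensity units in cafeteria animals 1, 4, 7, 10 and 13, against 86.7, 73.7, 39.0 and 58.4 in control animals 1, 4, 7 and 13. These intensities overlapped between the groups. Subtraction gave a difference of -0.29 (95% interval -0.51 to -0.074, adjusted p 0.635), and the scanner software's ratio gave -0.85 (-1.47 to -0.23, adjusted p 0.641), with control 4 alone at 1.32. The difference without the arrays numbered 4 was -0.20. Its sign was the same under 20 of 20 other settings, and its unadjusted p was under 0.05 in 15 of them. Of the 7 slides, 2 held both groups, and there the cafeteria animal lay below the control animal by a difference of -0.15 (slide 3) and -0.19 (slide 5). With slide as a block, a fit whose difference rests on these 2 slides alone, it was -0.17 with an unadjusted limma p of 0.249. The authors' table holds no value for this probe or for Lipe.

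Plin2 coats droplets and shields them from lipases, and its protein level follows the fat content of a cell. Its probe (chromosome 5, 105705820 to 105719096) had the widest spread between animals among the members with normexp and with subtraction, but not by the scanner software's ratio. Its Cy5 signal over background was 2760, 5310, 4280, 6440 and 8130 intensity units in cafeteria animals 1, 4, 7, 10 and 13, against 3490, 3580, 1960 and 4080 in control animals 1, 4, 7 and 13. The log2 ratios to the pool were -0.55, 0.22, -0.30, 0.39 and 0.54 in the same cafeteria animals, against -0.33, -0.13, -0.69 and -0.19 in the control animals. Cafeteria 4, 10 and 13 lay above every control animal, and cafeteria 1 and 7 lay within the control range.

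The means of Plin2 were 0.061 ± 0.47 in cafeteria (SD, n = 5) and -0.34 ± 0.25 in control animals (SD, n = 4). The difference of 0.40 (SE 0.22) is a fold of 1.32, with a 95% interval of -0.10 to 0.89 on the log2 scale, and did not pass the test (unadjusted limma p 0.106, adjusted p 0.997). The SD within groups, 0.39, exceeded that of 95.7% of all kept probes. By the scanner software's ratio it was 0.42 (percentile 81.0), below the SD of Lpin2 (0.55), Mgll (0.47) and the tested Lipe probe (0.47). The background correction hardly touched this probe, with a difference of 0.43 after subtraction and 0.44 by the scanner software. The estimate was positive under 23 of 23 other settings, between 0.18 and 0.68, with an unadjusted p under 0.05 in 4. Without cafeteria 1 it was 0.55 (unadjusted limma p 0.0168, adjusted p 0.713), and without control 7 or cafeteria 13 it was 0.28. On the slides shared by both groups, cafeteria minus control was -0.23 (slide 3) and 0.58 (slide 5), so the sign was not held within slides. With slide as a block, which rests on these shared slides alone, the difference was 0.18.

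**Figure D3:**
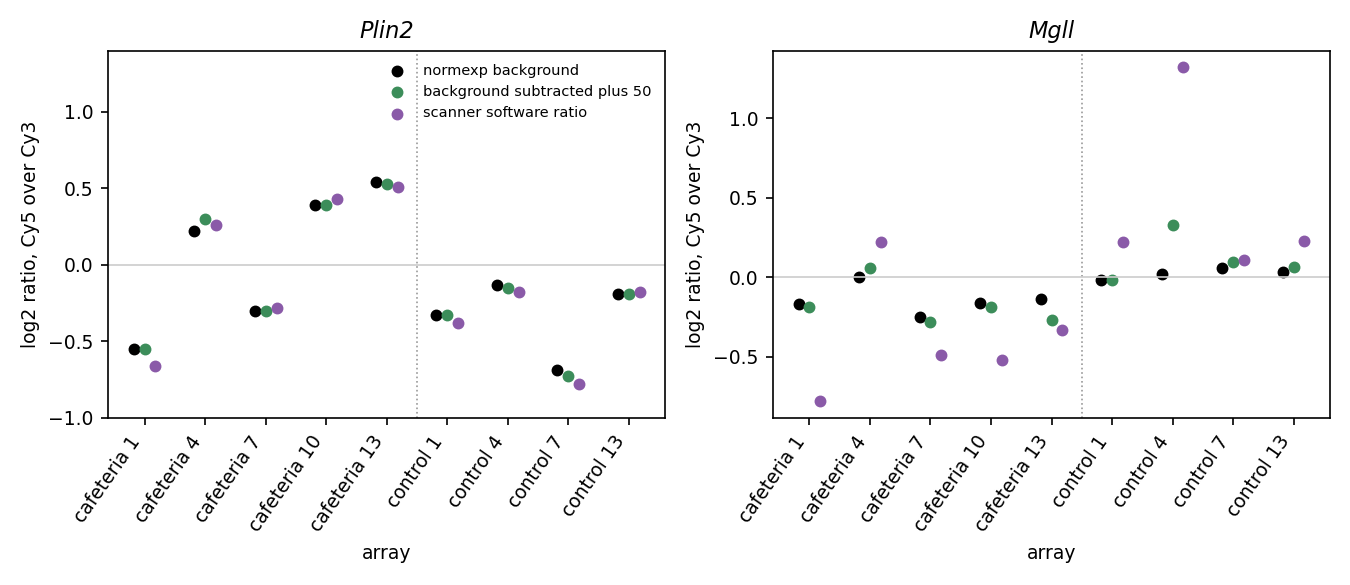
Log2 ratio to the pool (vertical axis) of Plin2 (left) and Mgll (right) on each of the 9 arrays (horizontal axis), cafeteria left of the dotted line and control right, under 3 background corrections. The corrections nearly coincide for Plin2 on every array, while for the dim Mgll probe control 4 lies at 0.018 by normexp and at 1.32 by the scanner software.

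Marker genes of other cells moved between animals beside Plin2. The mean log2 ratio of the monocyte markers (11 of 12 kept) was -0.60, 0.25, -0.45, 0.28 and -0.21 in cafeteria animals 1, 4, 7, 10 and 13, against 0.22, 0.14, -0.21 and -0.10 in control animals 1, 4, 7 and 13. Cafeteria 1 and 7, low in Plin2, were the lowest in these markers too. Cafeteria 13, highest in Plin2, was not among the high ones, and control 7, lowest in Plin2, was at -0.21. B cell markers (8 of 12 kept) averaged -0.20, 0.053, 0.15, 0.35 and 0.41 in cafeteria animals 1, 4, 7, 10 and 13, against -0.25, 0.15, -0.18 and -0.20 in control animals 1, 4, 7 and 13. Cafeteria 10 and 13 were the highest of the 9 arrays both in these markers and in Plin2. All 8 B cell markers had a higher mean in cafeteria animals (median difference 0.28), 1 of them at an unadjusted p under 0.05, as did all 9 kept markers of cytotoxic T and NK cells (median 0.36), 3 of them at that level. With slide as a block the medians were 0.30 for B cell markers and 0.094 for those of cytotoxic T and NK cells. Of the latter, Gzmb, Prf1, Klrb1a and Ccl5 then had a negative difference and the others a positive one. The marker shift between the diets with the largest median was that of erythroid cells (9 of 12 kept). Of these, 8 had a higher mean in cafeteria animals and 6 did so at an unadjusted p under 0.05, where 1.63% of all genes did, with a median difference of 0.50. Ahsp, the chaperone of alpha globin, differed by 1.02, Alas2, the first enzyme of haem synthesis in red cells, by 0.61 and Car2, a carbonic anhydrase, by 0.57. The groups did not overlap for these 3 genes, while 1.27% of all probes had groups that did not. Of the other erythroid markers, Epor differed by 0.015. Rhag, the only one with a lower mean in cafeteria animals, differed by -0.71 (second probe -0.18). The mean erythroid ratio lay between -0.53 and -0.062 in cafeteria and between -0.72 and -0.36 in control animals, so the groups overlapped in it. Platelet markers (10 of 12 kept) all had a lower mean in cafeteria animals (median difference -0.41), and 0 reached an unadjusted p under 0.05. Their array means were -0.60, -0.11, -0.79, 0.38 and 0.31 in cafeteria animals 1, 4, 7, 10 and 13. In control animals 1, 4, 7 and 13 they were -0.16, 1.09, -0.27 and 0.26. Cafeteria 1 and 7 were the lowest arrays in platelet markers, and cafeteria 10 and 13 the highest of their group. Among the controls, 7 was the lowest and 4 the highest both in platelet markers and in Plin2. T cell markers (13 of 14 kept) had a median difference of -0.13, with 12 lower and 1 higher in cafeteria animals. Of the lower ones, 2 reached an unadjusted p under 0.05, where 2.45% of all genes were lower at that level. They were Bcl11b at -0.51 (second probe -0.17) and Cd28 at -0.26, which missed that level with subtraction (unadjusted limma p 0.193). Neutrophil markers (7 of 10 kept) had a median difference of -0.053, with 2 higher and 5 lower. No marker passed the adjusted threshold. Their part in the values of Plin2 and Mgll was not tested. Of 10 adipocyte markers 5 were kept, Retn, Cfd, Pck1 and Slc2a4 (above background on 9 arrays) and Fabp4 (on 8). Adipoq, Lep, Plin1, Cidec and Adrb3 were above background on at most 2 arrays. The kept ones averaged -0.70, 0.19, -0.67, -0.013 and 0.12 in cafeteria animals 1, 4, 7, 10 and 13. In control animals 1, 4, 7 and 13 they averaged -0.11, 0.24, -0.29 and -0.27. Cafeteria 1 and 7 were the lowest arrays and control 4 the highest. The part of these markers in the values of Plin2 was not tested either.

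Promoter letters are shown for Plin2 and Mgll, because they alone among the 7 member genes with a promoter in the table held the E-box CACGTG. It is the core bound by basic helix-loop-helix factors such as USF and MYC. These 2 members had the largest differences with normexp and with subtraction. By the scanner software's ratio Lpin2, whose promoter held no E-box, differed by -0.71, more in size than Plin2 at 0.44. RefSeq (build GRCr8) gave 8 promoters of 7 member genes, and the 250 bases before each start were searched on both strands. The E-box was in 2 of the 8, against 5.59% of 33469 rat promoters. It is in capitals below, beginning 67 bases before the Plin2 start (chr5:106229019-106229268, minus strand) and 74 bases before the Mgll start (chr4:122749186-122749435, plus strand).
Plin2: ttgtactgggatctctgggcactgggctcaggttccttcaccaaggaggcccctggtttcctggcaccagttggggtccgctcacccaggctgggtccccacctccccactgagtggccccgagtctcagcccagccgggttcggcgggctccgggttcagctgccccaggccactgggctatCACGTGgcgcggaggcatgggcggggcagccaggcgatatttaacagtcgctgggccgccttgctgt
Mgll: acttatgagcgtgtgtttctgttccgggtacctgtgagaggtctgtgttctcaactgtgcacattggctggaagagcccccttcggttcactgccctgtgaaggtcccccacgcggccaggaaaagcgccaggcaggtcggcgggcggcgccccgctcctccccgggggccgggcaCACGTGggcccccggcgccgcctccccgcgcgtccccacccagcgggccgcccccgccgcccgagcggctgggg
The other Plin2 start in the table held no E-box. The motif AGGTCA, bound by PPAR and other nuclear receptors, was in 0 of the 8 windows (14.1% of all promoters). Its direct repeat with a spacer of 1 base, AGGTCANAGGTCA, was in 0 (0.0508%), and the sterol element TCACNCCAC, bound by SREBP, was in 0 (0.974%). The single motif is part of the direct repeat. The Plin2 and Mgll differences had opposite signs, and a match of letters is a description of the window, not of binding.

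The other genes of the pathway likewise gave no call after adjustment over all probes, where 0.00453% of genes had one. Each gene was represented by its brightest kept probe, and 2.45% of 22075 genes were lower and 1.63% higher at an unadjusted p under 0.05. Of other enzymes of triacylglycerol synthesis, 6 of 10 were kept, 2 with a higher and 4 with a lower mean in cafeteria animals, and 0 passed the unadjusted level. With normexp they ran from -0.15 for Agpat3, a lysophosphatidate acyltransferase, to 0.090 for Agpat4, another of that family, with a median of -0.073 beside 0.010 over all genes. Agpat5, at -0.13 with normexp, was the lowest with subtraction, at -0.36 (unadjusted limma p 0.0535). It was also the lowest by the scanner software's ratio, at -0.56. Of the glycerol 3-phosphate supply, 3 of 7 were kept and 0 passed, between -0.24 for Aqp9, a glycerol channel, and 0.083 for Gpd2, the mitochondrial glycerol 3-phosphate dehydrogenase. Among other lipolysis genes 6 of 10 were kept and 0 passed. Their extremes were -0.14 for G0s2, an inhibitor of adipose triglyceride lipase, whose second probe gave -0.0083, and 0.17 for Abhd12, a lysophospholipid and monoacylglycerol hydrolase.

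Of other droplet coat and assembly genes 10 of 17 were kept and 0 passed, between -0.20 for Rab18, a droplet-bound small GTPase, and 0.073 for Cidea, a droplet fusion protein. Rab18 had an unadjusted limma p of 0.0900, and with subtraction its difference was -0.26 with an unadjusted p of 0.0442. Of the enzymes that lead phosphatidate and diacylglycerol into other lipids, 12 of 12 were kept and 9 had a higher mean in cafeteria animals. Their highest was Dgkd, a diacylglycerol kinase, at 0.22, although its other probes gave -0.016 and -0.30. Their lowest, and the only one under the unadjusted level, was Selenoi, which makes phosphatidylethanolamine. It averaged -0.10 ± 0.11 in cafeteria and 0.064 ± 0.095 in control animals, a difference of -0.17 (unadjusted limma p 0.0487, adjusted p 0.997), and it missed that level with subtraction (unadjusted p 0.409).

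Of the lipid-sensing transcription factors and cofactors 10 of 12 were kept, 5 with a higher and 5 with a lower mean, and 2 of the lower passed the unadjusted level. Srebf2, the driver of sterol synthesis, averaged -0.23 ± 0.17 in cafeteria (SD, n = 5) and 0.11 ± 0.23 in control animals (SD, n = 4). The difference was -0.35, with an unadjusted limma p of 0.0167 and an adjusted p of 0.997, but the second Srebf2 probe gave 0.026. Ppargc1b, a coactivator of SREBP and of mitochondrial genes, averaged -0.086 ± 0.18 in cafeteria and 0.18 ± 0.15 in control animals, a difference of -0.27 (unadjusted limma p 0.0301, adjusted p 0.997). Its second probe gave 0.023, so neither gene had probes of the same sign. The highest of the list was Mlxipl, the carbohydrate-responsive factor ChREBP, at 0.23 (unadjusted limma p 0.194). Ppara was above background on 0 arrays.

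**Figure D4:**
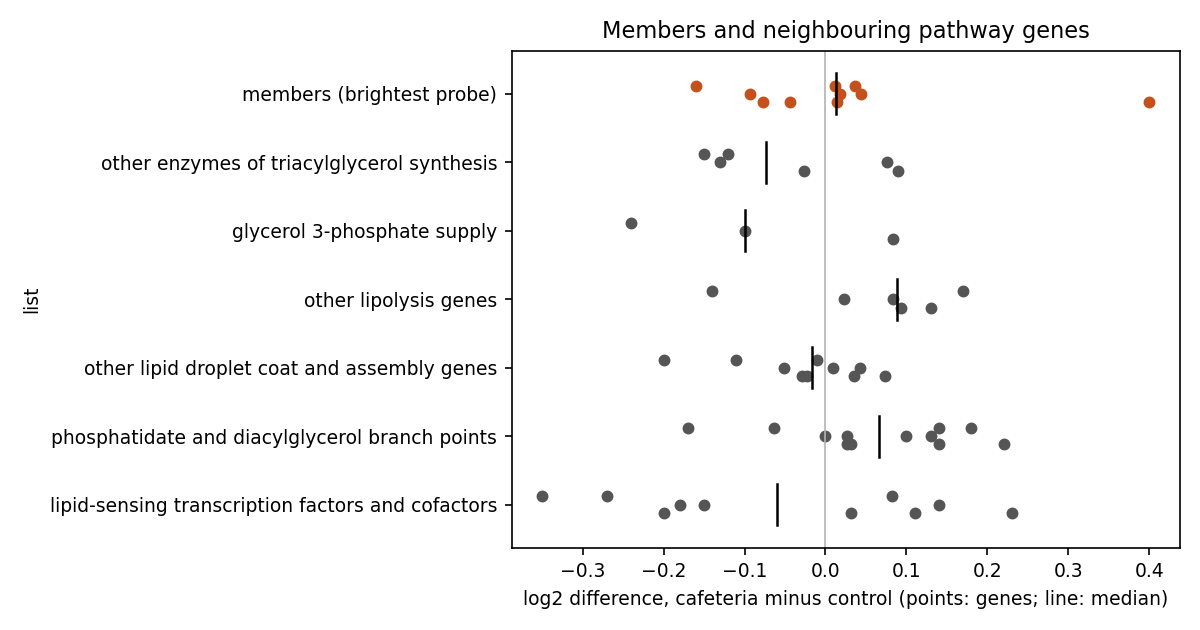
Difference between diets (cafeteria minus control, log2, horizontal axis) of the 10 members and of the genes of 6 neighbouring lists (vertical axis), each point the brightest kept probe of a gene and the line the median of the list. Plin2 at 0.40 lies farthest to the right and Srebf2 at -0.35 farthest to the left, and the medians lie between -0.10 and 0.088.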

How the data were processed

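RNA of 9 rats, 5 cafeteria and 4 control, was read on 2-colour Agilent arrays, 1 per animal. Per the file headers, the scanner software (version 9.5.1.1) gave each spot's mean intensity and its local background (median) in either dye without normalization, flags, and a log10 ratio (Cy5 over Cy3) made after background subtraction and linear and lowess dye normalization. A table deposited by the authors holds log2 values per spot. They followed Cy5 of each array (rank correlation 0.993 to 0.999), with medians of 9.49, 9.65, 9.59, 9.59 and 9.69 in cafeteria animals 1, 4, 7, 10 and 13 and 9.46, 9.51, 9.40 and 9.56 in control animals 1, 4, 7 and 13. They were read as an uncentred Cy5 level, and how the pool entered them is unknown. Probe positions are on rn4, per the file headers, which name no exon or untranslated region.

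Background was corrected by normexp (offset 50) and ratios were normalized by loess within arrays, control spots having no weight. Spots marked non-uniform or outlying were left out and repeated spots averaged. Groups were compared with limma 3.58.1 (statmod 1.5.0, R 4.3.3; degrees of freedom 7 residual and 2.93 prior), and p-values were adjusted by Benjamini-Hochberg over the 25811 probes kept. The fit was tested on simulated data. Names were updated through RefSeq for 19605 probes (47.8%), and other probes kept the name in the file. Python 3.11.15 and matplotlib 3.10.9 drew the figures. The number of arrays limits the precision. Each p-value sets a difference against the spread between arrays, 1 per animal, in which animal, slide and array effects are mixed.

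All members were named, with, from each wider list, the genes at an unadjusted p under 0.05 (at most 4 per direction) and those at its extremes. Alternatives covered the background, normalization, the authors' values, the filter, slide and replicate blocks, priors, array weights and each array left out. Subtraction plus 50 and leaving out the arrays numbered 4 were added after the data were seen. The members and lists were chosen with earlier results of these data known.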

Additional observations from a re-analysis of the deposited data

Results flagged for a closer look

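Of 28 sets of values of a member probe in 1 group, 1 held an animal far from the others, and chance alone gives about 1 in 20. On the brightest Dgat2 probe, cafeteria 10 had a log2 ratio of -0.21, while the other cafeteria animals lay between -0.018 and 0.051, a gap of 0.738 of the whole range. With the scanner software's ratio the same animal was at -0.32 and the others between -0.40 and 0.081, so it was no longer the lowest.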

How the results depend on the processing

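Over 23 alternatives the member probes gave 314 estimates, of which 274 kept their sign, 40 reversed it and 0 passed the adjusted threshold (lowest adjusted p 0.389). The alternatives of the filter and the prior change the test but not the estimate, so the signs kept there were fixed in advance. Estimates with slide as a block rest only on the 2 slides that held both groups. Agpat1 was -0.0092 without background subtraction, -0.0085 by the scanner software, -0.086 with median centring, -0.054 from Cy5 alone, -0.018 with array weights and -0.011 with subtraction plus 50. Agpat2 was -0.049 with slide as a block and -0.012 with array weights. Dgat1 was -0.037 from Cy5 alone, -0.066 with slide as a block, -0.012 with the replicate block and -0.023 without the arrays numbered 4 on probe 1, and -0.011 with slide as a block and -0.0015 with array weights on probe 2. Dgat2 was -0.00064 without background subtraction, -0.049 with the authors' values centred and -0.0065 with slide as a block on probe 1, and -0.0067 with median centring on probe 3. Gpam was 0.0054 with median centring, 0.095 from Cy5 alone and 0.034 with the authors' values. Lipe was -0.0049 with slide as a block. Lpin1 probe 1 was 0.055 with median centring, 0.035 from Cy5 alone, 0.12 with the authors' values and 0.0021 with these centred. With 1 array left out, the ranges of those whose sign reversed were -0.014 to 0.063 for Agpat1, -0.029 to 0.082 for Dgat1 probe 1, -0.023 to 0.044 for Dgat1 probe 2, -0.0073 to 0.06 for Dgat2 probe 1, -0.15 to 0.013 for Gpam and -0.028 to 0.087 for Lpin1 probe 2. The count of member probes at an unadjusted p under 0.05 was 1, where 4.41% of all probes reached that level. It became 2 with the authors' values centred (Plin2 and Lpin2), where 1289 of all 20163 probes did. It was 0 with Cy5 above background on all arrays, which drops Mgll (1013 of 22314 probes). It was also 0 with slide as a block (811 of 25811) and with the replicate block (1100 of 25811). With 1 array left out it lay between 0 and 2. It was 0 without control 7 (1191 of 25811) or control 13 (1113) and 2 without cafeteria 1 (1647). The count with groups that do not overlap, 0, became 1 (Mgll) without the arrays numbered 4, and 0 to 1 with 1 array left out. Leaving out cafeteria 4 removes the only cafeteria value of Mgll among the controls. The share of all probes without overlap is given for the main setting only (1.27%). The median difference was 0.14 with the authors' values, whose median over all probes was 0.13. The count over all probes, 2, became 0 without background subtraction, by the scanner software, with median centring, Cy5 alone, the authors' values as given or centred, slide as a block, the replicate block, a trended and robust prior, array weights, subtraction plus 50 and without the arrays numbered 4, and lay between 0 and 2 with 1 array left out. The causes were not tested. Replicate numbers were not treated as pairs in the main fit. Deviations of animals with the same number correlated at -0.048, 0.112, 0.0988 and -0.146, with 1 of 4 pairs the best match. So few pairs cannot exclude a pairing of the animals. Dim signal limits Mgll, Lipe, Lpin2 and the third Dgat2 probe most.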
